A study of Canis lupus familiaris with 36 samples.

Results

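The 6 libraries described here hold the small RNA of heart tissue from control dogs, and they are the libraries titled healthy heart, numbered from 1 to 6, among the 36 samples of a study of canine visceral hemangiosarcoma, a cancer of endothelial cells. The control dogs had died of non-neoplastic causes, and the hearts were sampled at necropsy at 1 diagnostic laboratory as formalin-fixed, paraffin-embedded (FFPE) whole tissue. The methods name no treatment of these dogs, and the age, breed, cause of death and heart chamber of each dog were not analysed here. Counts of 12 cardiac libraries were at hand, those of spleen were not analysed here, and the tumor libraries enter no value below. The libraries are named replicates 1 to 6 after their titles, 1 dog each.

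The labels contradict themselves for these libraries. The titles call the hearts healthy while the treatment field of the same 6 samples names hemangiosarcoma, and the title was followed. The labels also name a QIAseq kit for library preparation, whereas the methods name the NEXTflex small RNA kit for cardiac tissue. Each heart was sampled as a mixture of cell types, in which fewer cells of a type and less of a miRNA per cell cannot be told apart.

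MicroRNAs (miRNAs) are short RNAs, cut from hairpin precursors, that guide Argonaute proteins to messenger RNAs and lower their stability or translation. Several are made almost exclusively in striated muscle. In the heart, miR-1 and miR-133a are transcribed together from paired genes, while miR-499, miR-208a and miR-208b lie within introns of myosin heavy chain genes and are produced along with them. Names are given without the prefix for dog.

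The deposited table lists 517 entries, each a mature miRNA on a precursor, for 453 mature miRNAs. For the 48 mature miRNAs with several entries, the entry with the highest total over the 6 libraries was kept. The library totals were then from 5544912 to 9336949 counts (median 7177953.5), lowest in replicate 6 and highest in replicate 3. Levels are given as a percent of this total or as counts scaled to a total of 1000000 (CPM), with the standard deviation (SD) between the 6 libraries. For the share of a single miRNA in 1 library, the 95% Wilson interval reached at most 0.0263 percentage points to either side, and for the share of a list or of the 10 highest miRNAs at most 0.0400 percentage points, which covers counting error only. A miRNA is said to be counted in a library from 1 count on, while levels at or under 3 counts, which corresponded to 0.321 to 0.541 CPM, are not told apart from 0.

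A small number of miRNAs made up most of the counts. In each of the 6 libraries, 7 miRNAs held 50% of the counts, from 24 to 26 held 90%, and from 66 to 72 held 99%. The 10 most abundant held 64.7% ± 0.818 (SD, n = 6), with 63.7% in the lowest and 65.8% in the highest library. By mean level, miR-30d alone was above 100000 CPM with 11.9% of the counts, and the 22 miRNAs between 10000 and 100000 CPM held 76.3%. The 32 miRNAs between 1000 and 10000 CPM held 9.99%, the 50 between 100 and 1000 CPM held 1.48%, and the 67 between 10 and 100 CPM held 0.270%.

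At the other end, 167 of the 453 mature miRNAs had no count in any library. At least 1 count was found for 286, of which 226 were counted in all 6 libraries, 60 in 1 to 5 libraries and 25 in exactly 1. Between 245 and 256 miRNAs were detected per library (median 250). A level of at least 10 counts in every library was reached by 199 miRNAs. Absence is therefore a statement about this depth, and 60 of the detected miRNAs had a mean under 1 CPM.

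MiR-30d, the leading member of the miR-30 family, was the most abundant miRNA in all 6 libraries. It had 98828 CPM in the lowest library, replicate 6, a median of 109398 CPM, and 154079.9 CPM in the highest, replicate 4. Its mean was 118988 ± 22154 CPM (SD, n = 6), or 11.9% of the counts. Replicates 4 and 5 were above the other 4, and even the lowest library of miR-30d was above the highest library of miR-133a, the next in the order. With miRNAs of nearly equal counts kept once, miR-30d stayed first, with 12.9% against 8.31% for miR-133a. The first place was lost only where entries of a mature miRNA were added up. The lower entry of miR-133a had 99.9998% of the counts of its higher entry, and that of let-7a 99.4%. When the distinct entries of a mature miRNA were summed, which counts a read on several precursors more than once, miR-133a had 12.1%, let-7a 10.1% and miR-30d 9.44%. With all deposited entries counted, miR-133a and miR-133c had 10.6% each and miR-30d 8.26%.

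The labelled tissue was checked against 3 miRNAs of heart muscle, miR-133a, miR-1 and miR-499, which were at ranks 2, 6 and 13 by mean level. MiR-133a, which restrains proliferation and smooth muscle genes in cardiomyocytes, had 64478 CPM in replicate 6, a median of 75079 and 90910.0 CPM in replicate 2. MiR-1, which promotes the differentiation of cardiac muscle, had 47582 CPM in replicate 4, a median of 60675 and 75010.2 CPM in replicate 1. MiR-499, hosted by the myosin gene MYH7B, had 19848 CPM in replicate 5, a median of 27150.2 and 30535 CPM in replicate 3. MiR-133a was above miR-1, and miR-1 above miR-499, in each of the 6 libraries, by a mean ratio of 1.28 ± 0.190 (SD, n = 6) and of 2.37 ± 0.249 (SD, n = 6).

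MiR-133c, listed as a mature miRNA of its own, had the same counts as miR-133a to within 6 counts in a library. Both names describe 1 set of reads here, which the files do not divide. MiR-103 and miR-107, whose genes lie in the pantothenate kinase genes PANK1, PANK2 and PANK3, likewise differed by at most 1 count in a library. On the precursor in PANK1, miR-107 had 2.19% of the counts of the entry used for it.

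**Figure D1:**
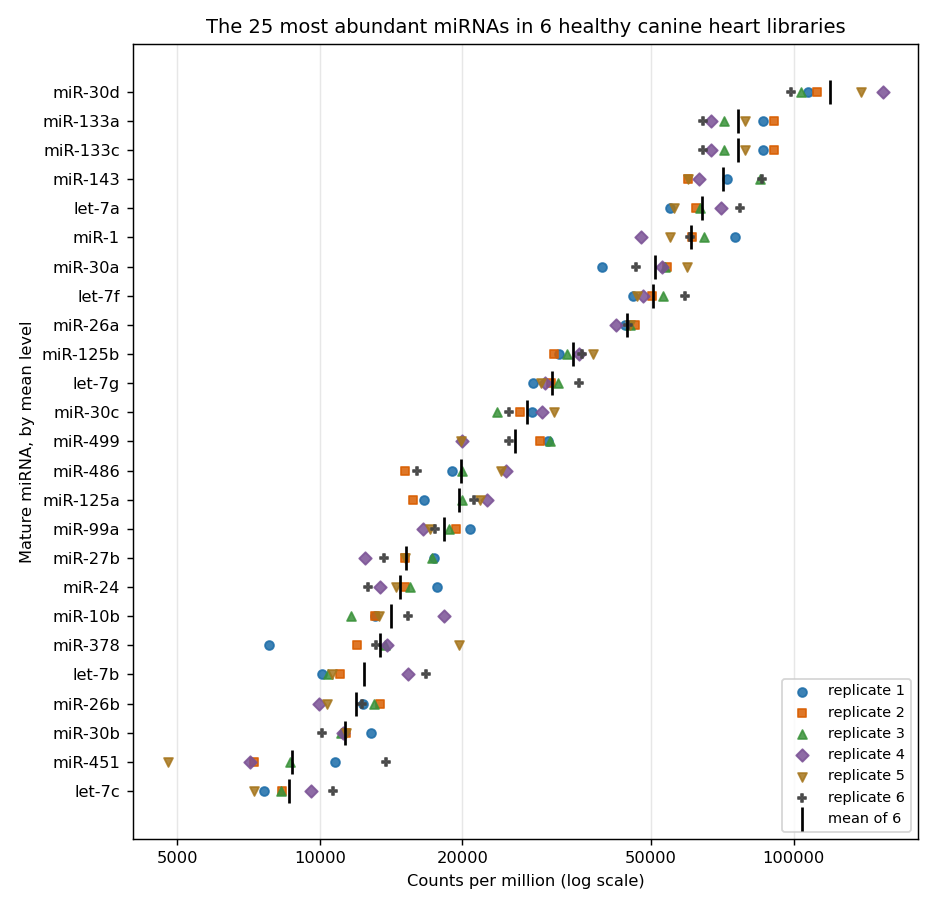
Levels of the 25 most abundant mature miRNAs in the 6 healthy heart libraries, with CPM on a logarithmic horizontal axis, 1 symbol per library and a bar for the mean of 6. MiR-30d lies farthest to the right in every library, between 98828 and 154079.9 CPM, and the points of neighbouring miRNAs mostly overlap.

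Below miR-133a and miR-133c in the order came miR-143, a miRNA of vascular smooth muscle, with 59752 CPM in replicate 2, a median of 67647 and 85714 CPM in replicate 6. Replicates 1, 3 and 6 were high and replicates 2, 4 and 5 low. Let-7a, the leading member of a family linked to differentiated tissue, held 6.39% ± 0.856 of the counts (SD, n = 6), from 54750.1 CPM in replicate 1 to 77043 in replicate 6. MiR-30a held 5.09% ± 0.697 and let-7f 5.05% ± 0.491. MiR-26a, whose genes lie in the phosphatase genes CTDSPL and CTDSP2, held 4.46% ± 0.134, and its libraries were all between 42190.0 and 46187 CPM. MiR-125b held 3.42% ± 0.251 and was at rank 10 in all 6 libraries.

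The remaining names of the 25 were between let-7g, with 30847 ± 2459.6 CPM (SD, n = 6), and let-7c, with 8626 ± 1283 CPM (SD, n = 6). In between were miR-30c, miR-499, miR-486, miR-125a, miR-99a, miR-27b, miR-24, miR-10b, miR-378, let-7b, miR-26b, miR-30b and miR-451. MiR-378, which lies in PPARGC1B, a coactivator gene of oxidative metabolism, had 7831 CPM in replicate 1, a median of 13433 and 19711 CPM in replicate 5. Replicate 1 was low and replicate 5 high, while the other 4 libraries were between 11971 and 13841 CPM.

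Most neighbours in this order did not differ beyond their spread. Of the 25 steps from 1 name to the next, from miR-30d down to miR-22, the order was the same in all 6 libraries for 5. These were miR-30d over miR-133a, let-7f over miR-26a, miR-26a over miR-125b, miR-125b over let-7g and miR-99a over miR-27b. The ranges did not overlap for 2 of them, miR-30d over miR-133a and miR-26a over miR-125b. MiR-143, let-7a, miR-1, miR-30a and let-7f, in contrast, were each above the next of them in 4 of the 6 libraries.

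The muscle list of 8 names, miR-1, miR-133a, miR-133b, miR-133c, miR-206, miR-208a, miR-208b and miR-499, held 24.0% ± 3.06 of the counts (SD, n = 6), from 20.2% in replicate 4 to 27.9% in replicate 1. All 8 were counted in all 6 libraries. With the reads that miR-133a and miR-133c share counted once, the list held 17.8% ± 2.48. Its level was carried by miR-133a, miR-133c, miR-1 and miR-499, and the other 4 members were each under 1000 CPM.

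MiR-133b, which resembles miR-133a and is best known from skeletal muscle, had 459.5 CPM in replicate 6, a median of 564 and 761 CPM in replicate 1. MiR-206, its neighbour in the genome and a miRNA of skeletal muscle and regeneration, had 79.4 CPM in replicate 5, a median of 95.3 and 145 CPM in replicate 3. MiR-133a was above miR-133b by 135 ± 12.6 times (mean ratio, SD, n = 6), and by at least 113 times in every library.

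The miRNAs of the myosin genes were far apart in level. MiR-208b, which lies in MYH7, the gene of the slow beta myosin heavy chain, had 95.3 CPM in replicate 5, a median of 127 and 205 CPM in replicate 1. MiR-208a, which lies in MYH6, the gene of the alpha chain, had 1.98 CPM in replicate 6, a median of 2.76 and 8.57 CPM in replicate 3, from 11 to 80 counts in a library. Each library had more miR-208b than miR-208a, by 16.7 times in replicate 3 to 72.2 times in replicate 1. MiR-499 was above miR-208b by 202 ± 37.8 times (mean ratio, SD, n = 6).

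The miR-30 family, whose 5 members share a seed and are abundant in heart, held 21.0% ± 2.87 of the counts (SD, n = 6), from 18.2% in replicate 6 to 24.9% in replicate 4. MiR-30d made up 56.6% of it. MiR-30c had 27337 ± 2801 CPM, miR-30b 11326 ± 863 CPM and miR-30e 1819 ± 205 CPM (SD, n = 6). The ratio of miR-30d to its neighbour miR-30b was between 8.35 in replicate 1 and 13.7 in replicate 4, whereas miR-30c and miR-30e, which are neighbours at 1 of the loci of miR-30c, kept a ratio of 15.1 ± 1.12 (SD, n = 6).

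The muscle list was above the miR-30 family in 4 of the 6 libraries, and the family was above the list in replicates 4 and 5. This order depends on the shared reads of miR-133a and miR-133c. With these counted once, the miR-30 family, at 22.9%, was above the muscle list in 5 of 6 libraries. The let-7 family, at 18.5%, was then also above the muscle list, at 17.8%, by mean, and the list was the higher in 3 of the 6 libraries.

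The let-7 family with miR-98 held 17.1% ± 1.94 (SD, n = 6), from 15.0% in replicate 1 to 20.4% in replicate 6. Let-7a, let-7f, let-7g and let-7b led it, and each of these 4 was lowest in replicate 1 and highest in replicate 6. Of the 9 members measured, 8 were counted in all 6 libraries and let-7j had no count in any. Let-7i was not analysed here.

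**Figure D2:**
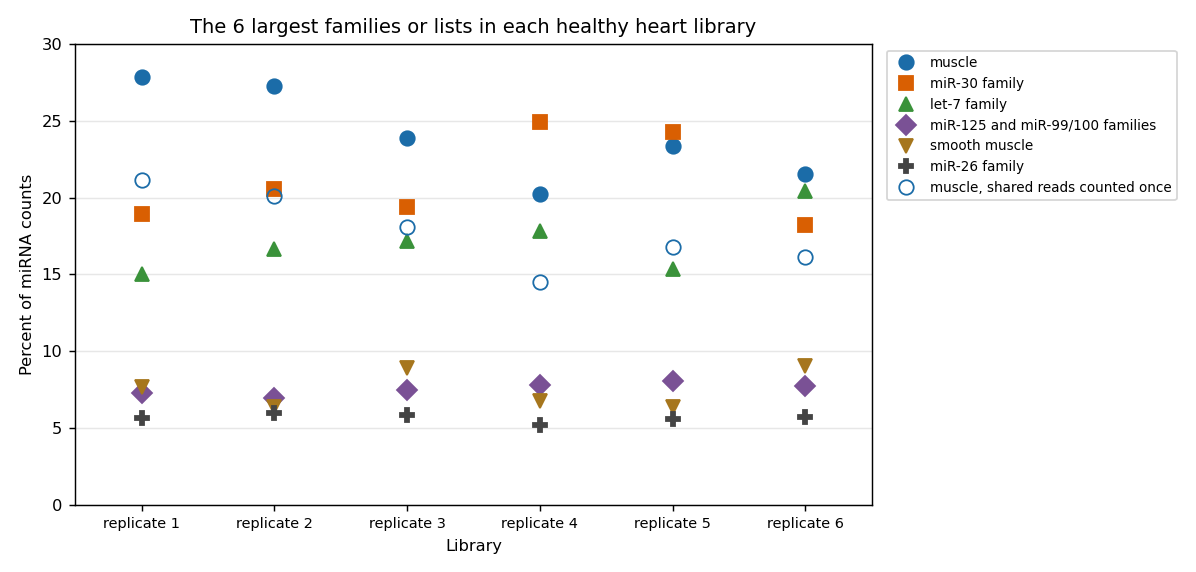
Percent of miRNA counts (vertical axis, from 0) held by the 6 largest lists in each of the 6 healthy heart libraries (horizontal axis). Open circles give the muscle list with the shared reads of miR-133a and miR-133c counted once, which places it under the miR-30 family in 5 of 6 libraries, while the miR-125 and miR-99 families and the miR-26 family stay nearly level across the libraries.

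The miR-125 and miR-99 families, which share clusters with let-7 genes, held 7.55% ± 0.400 (SD, n = 6). MiR-125b led them, followed by miR-125a with 19626 ± 2826 CPM, miR-99a with 18328 ± 1595 CPM and miR-99b with 3354 ± 416 CPM (SD, n = 6). The miR-26 family of miR-26a and miR-26b held 5.65% ± 0.253, with 5.22% in the lowest and 5.96% in the highest library. MiR-26b, within CTDSP1, had 11900.5 ± 1410.0 CPM (SD, n = 6).

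Together, the muscle list, the miR-30, let-7, miR-26, miR-125 and miR-99 families and the smooth muscle list hold 30 names and accounted for 82.8% ± 0.476 of the counts (SD, n = 6), from 82.5% to 83.8%. The SD of this total was below the SD of the muscle list, of the miR-30 family, of the let-7 family and of the smooth muscle list taken singly, and above that of the miR-26 family (0.253) and of the miR-125 and miR-99 families (0.400). With names of nearly equal counts, such as miR-133a and miR-133c, counted once, the 6 lists held 81.7% ± 0.442 (SD, n = 6), from 81.1% to 82.4%. Percentages of 1 total are not independent, and a list that takes more leaves less for the others.

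The clusters of miR-23, miR-27 and miR-24 held 3.22% ± 0.410 (SD, n = 6), most of it in miR-27b, at 15177 ± 1937 CPM, and miR-24, at 14795 ± 1773 CPM. MiR-378 and miR-22, both abundant in oxidative muscle, held 2.02% ± 0.316. The ratio of miR-378 to miR-22 was 0.859 in replicate 1, where miR-22 was the higher, and up to 3.07 in replicate 5. MiR-10 and miR-196, embedded in HOX gene clusters that pattern the body axis, held 1.51% ± 0.268, nearly all of it miR-10b with 14118 ± 2348 CPM. MiR-196a and miR-196b were counted in 2 and 3 libraries, with at most 4 and 12 counts.

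Families tied to cell growth had smaller shares. The miR-17-92 cluster and its paralogs, which promote proliferation, held 0.676% ± 0.0722 (SD, n = 6), and miR-92a made up 63.4% of this, followed by miR-25, miR-93 and miR-20a. The miR-15 and miR-16 family, which slows the cell cycle, held 0.454% ± 0.0522, led by miR-16 with 3115 ± 312 CPM and miR-195 with 829 ± 139 CPM. MiR-503 and miR-424, which belong to the same family, were at 14.3 ± 8.22 and 7.42 ± 3.88 CPM (SD, n = 6), with replicate 1 the highest for both.

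The miR-29 family, which represses collagen genes, held 0.493% ± 0.108 (SD, n = 6), with 0.337% in replicate 4 and 0.657% in replicate 3. MiR-29a had 2692 CPM in replicate 4, a median of 3982 and 5335 CPM in replicate 3, and miR-29c was lowest and highest in the same libraries. The miR-181 family held 0.248% ± 0.0187, led by miR-181a and miR-181b, and the miR-148 and miR-152 family held 0.125% ± 0.0229, led by miR-148a.

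Among the lists for other cells of a heart, that of smooth muscle held the most. MiR-143 and miR-145, which keep smooth muscle contractile, held 7.53% ± 1.23 (SD, n = 6), of which miR-143 was 94.3%. MiR-145 had 4323 ± 400.4 CPM. MiR-126, the miRNA of endothelial cells, which lies in EGFL7, had 2522 CPM in replicate 4, a median of 3009 and 4187 CPM in replicate 3. Replicate 3 was above the other 5, which were between 2522 and 3166 CPM. MiR-199 and miR-214, made in fibroblasts and other mesenchymal cells, held 0.315% ± 0.0722, lowest in replicate 5 and highest in replicate 6.

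Among the markers of blood cells, those of red cells were the most abundant. The list of miR-451, miR-144 and both arms of miR-486 held 3.03% ± 0.334 (SD, n = 6), with 2.39% in replicate 2 and 3.03% to 3.37% in the other 5. MiR-486 made up 65.5% of this list and miR-451 28.8%. The members of the list were not high in the same libraries. MiR-451, which promotes red cell maturation, had 4792 CPM in replicate 5, a median of 7954 and 13785 CPM in replicate 6. MiR-486, which lies in ANK1, a gene used in muscle as well as in red cells, had 15135 CPM in replicate 2, a median of 19471 and 24763 CPM in replicate 4, and was near its highest level in replicate 5, where miR-451 was lowest. The ratio of miR-486 to miR-451 was between 1.16 in replicate 6 and 5.03 in replicate 5.

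MiR-144, the cluster partner of miR-451, was at 33.7 ± 11.9 CPM (SD, n = 6) and was lowest and highest in the same libraries as miR-451. MiR-486-3p, the other arm of the miR-486 hairpin, had 1705 ± 203 CPM and was 11.7 ± 2.15 times below the main arm (mean ratio, SD, n = 6). The myeloid and lymphoid list held 0.0713% ± 0.0131. All 6 of its members were counted in all libraries, led by miR-146a with 251 ± 66.1 CPM, miR-150 with 124 ± 21.3 CPM and miR-142 with 116 ± 40.8 CPM. MiR-223, a miRNA of granulocytes, was at 10.6 CPM in replicate 5 and 56.0 CPM in replicate 3.

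Lists of miRNAs that define liver, epithelium and endocrine cells held the smallest shares. The epithelial list of 10, which includes the miR-200 family that keeps epithelial cells in their state, held 0.00190% ± 0.000536 (SD, n = 6), and 4 of its members, miR-203, miR-182, miR-183 and miR-200c, were counted in all 6 libraries. The highest of them, miR-203, a miRNA of squamous epithelium, had 9.35 ± 2.94 CPM. MiR-375, a miRNA of endocrine cells, had 3.98 ± 2.82 CPM, and the pancreatic miR-216a, miR-216b and miR-217 were counted in 1, 3 and 2 libraries with at most 10 counts. MiR-122, the main miRNA of liver cells, was counted in every library, with 5.36 CPM in replicate 2, a median of 17.8 and 49.2 CPM in replicate 6. Replicates 3 and 6, with 43.6 and 49.2 CPM, were above the other 4, which had at most 17.9 CPM.

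Of the neuronal miRNAs, miR-9 had 125 CPM in replicate 5, a median of 242 and 394 CPM in replicate 6. MiR-124, the defining miRNA of neurons, had 24.8 CPM in replicate 4 and at most 2.68 CPM in the other 5, and miR-137 was counted in 1 library. The large imprinted cluster between DLK1 and DIO3, active in embryonic and stem cells, held 0.0443% ± 0.00922 (SD, n = 6). The list of its members used here leaves out some of them, such as miR-329b and miR-3958. Of the 34 listed members measured, 31 were counted, 21 of them in all 6 libraries, led by miR-379, miR-127, miR-411 and miR-409 at 103, 75.6, 53.2 and 36.1 CPM.

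A group of 137 miRNAs with high numbers, first listed in the dog, was mostly without counts. In these hearts 124 of them had no count, 13 had at least 1, and 4 were counted in all 6 libraries. These 4 were miR-8859a, with 1383 ± 199 CPM (SD, n = 6), miR-8859b with 55.0 ± 5.12 CPM, miR-8884 with 14.5 ± 3.91 CPM and miR-8803 with 2.75 ± 0.916 CPM. MiR-8859a made up 94.9% of the 0.146% of counts that the group held, and it was at rank 49 of all miRNAs.

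**Figure D3:**
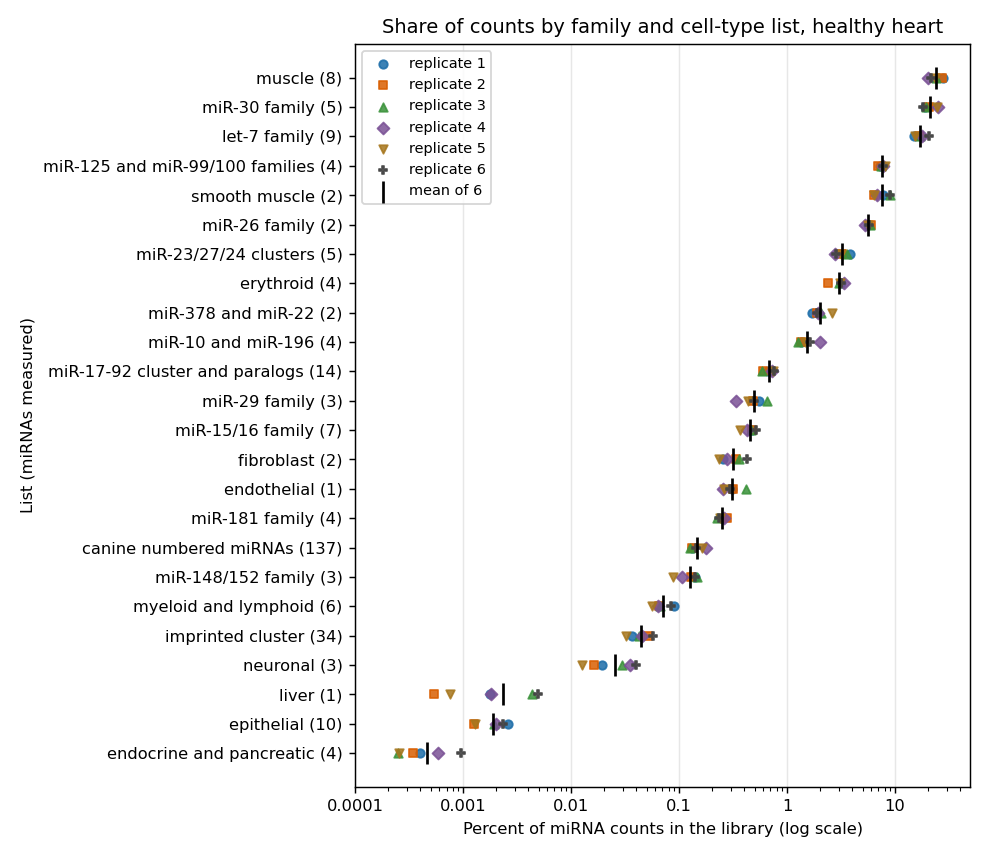
Percent of miRNA counts (logarithmic horizontal axis) held by each of the 24 lists in the 6 healthy heart libraries, with the number of miRNAs measured in parentheses, 1 symbol per library and a bar for the mean. Lists of muscle and widely expressed families lie at the right, the markers of endothelium, fibroblasts and white cells between 0.0564% and 0.425% in the single libraries, and those of liver, epithelium and endocrine cells at the left, at most 0.00492%.

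MiRNA genes that lie close together are often transcribed as 1 RNA, and their mature levels were compared within such groups. Neighbours were genes within 10 kb of each other in the gene table of another dog assembly, UU_Cfam_GSD_1.0, used for host genes and neighbours alone. Of the 34 groups led by a miRNA of at least 100 CPM, 2 had a member at 0. Over the others, the highest and the lowest member differed by a median of 11.2 times, and by more than 10 times in 18 groups. The part of adapter ligation in these differences was not tested.

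MiR-133a and miR-1, at 2 loci, showed the smallest gap between the highest and lowest member of a group, with means within 1.26 times of each other. MiR-133b was 5.70 ± 1.37 times above its neighbour miR-206 (mean ratio, SD, n = 6). MiR-27b and miR-24 were also close, with a ratio between 0.931 and 1.11 in every library, while their neighbour miR-23b had 85.5 ± 17.2 CPM (SD, n = 6) and lay 182 ± 35.5 times under miR-27b. In the cluster of the other locus, miR-24 was 77.3 ± 15.9 times above miR-23a. Let-7f was 338 ± 63.1 times above let-7d, miR-451 was 262 ± 45.1 times above miR-144 and miR-143 was 16.4 ± 2.45 times above miR-145 (mean ratios, SD, n = 6). Many of the miRNAs compared have genes at several loci, among them miR-24, miR-1, miR-133a, miR-92a, miR-181a and miR-181b. The counts do not say which locus a read came from. Each locus was given the full level of its miRNA, so a pair such as miR-133a and miR-1 stands as 2 of the 34 groups.

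The gap was wide among the miRNAs of the miR-17-92 cluster as well, where miR-92a, which also has a gene in the miR-106a-363 cluster, was 23.1 ± 3.57 times above miR-20a and 61.1 ± 8.70 times above miR-19a (mean ratios, SD, n = 6). In that cluster miR-17 itself had 2.23 CPM, while miR-106a, which is listed on the precursor of miR-17 with 2916 counts in all and on its own with 53, had 64.8 CPM. The 2 names have separate counts, but the level of miR-106a is that of its entry on the precursor of miR-17. Which of the 2 miRNAs those reads belong to was not tested. Closer pairs were miR-181a over miR-181b at 4.05 ± 0.240 and miR-25 over miR-93 at 2.48 ± 0.244 times (mean ratios, SD, n = 6).

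**Figure D4:**
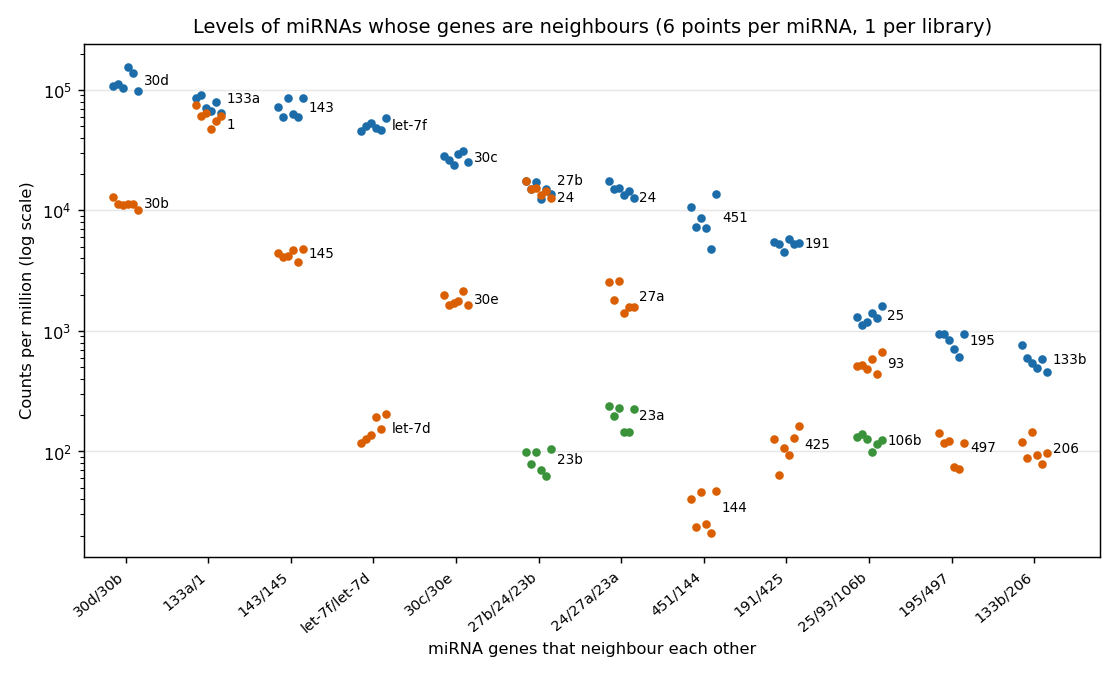
Levels of miRNAs from 12 groups of neighbouring genes in the 6 healthy heart libraries, with CPM on a logarithmic vertical axis, the groups along the horizontal axis, 6 points per miRNA and colours that mark the members in order of level. MiR-133a and miR-1 lie together, as do miR-27b and miR-24, whereas let-7f and let-7d, or miR-451 and miR-144, are at least 189 times apart in every library.

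The hearts resembled each other closely in the order of levels and less closely in the levels themselves. Over the 105 miRNAs with a mean of at least 100 CPM, which held 99.7% of the counts, Spearman's rho was between 0.980 and 0.994 in the 15 pairs of libraries, a description in which the libraries share the same miRNAs and the same processing. The median miRNA differed by 1.12 to 1.25 times between the libraries of a pair, and from 0 to 7 miRNAs differed by more than 2 times. The closest pair by this median was replicates 2 and 3, and the most distant was replicates 1 and 4. No pair differed as little as counting error would give, with a chi-square of at least 755 per degree of freedom, and no pair was treated as repeats of 1 library.

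The coefficient of variation (CV), the SD between libraries as a percent of the mean, had a median of 14.9% over the 105 miRNAs, with 10.8% at the lower and 20.1% at the upper quartile. Counting error by itself would give at most 3.63%, and for each of the 105 the CV was more than 2 times that of counting. The highest library was less than 2 times the lowest for 90 of the 105. The biological coefficient of variation common to these miRNAs, estimated by edgeR, was 18.7%.

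Values were not spread evenly over the hearts. Replicate 6 was the highest library for 30 of the 105 miRNAs and replicate 1 for 27, and replicate 5 was the lowest for 35. These numbers rest on CPM and can change with the scaling. The TMM factors of edgeR, which scale each library by the bulk of its miRNAs, were highest in replicate 1 (1.09) and lowest in replicate 5 (0.906).

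The lowest CV belonged to miR-26a, with 3.01%, followed by miR-185 with 5.60%, miR-125b with 7.35%, miR-181b with 7.39% and miR-30b with 7.62%. These places depend on the scaling. With edgeR's TMM factors, miR-26a had a CV of 8.04% and was at place 14 from the lowest, and miR-125b had 12.3% and was at place 31. MiR-181b had 6.10%, miR-185 7.01% and miR-30b 7.48%, at places 3, 8 and 10. With the muscle list left out of the total, miR-185 was at place 1 of 111, miR-125b at 2, miR-26a at 5, miR-181b at 20 and miR-30b at 28.

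The highest CV belonged to miR-10a, a HOX-cluster miRNA, with 472 CPM in replicate 2, a median of 1039 and 1699 CPM in replicate 4, a CV of 46.2%. Replicates 1 and 2 were low, at 513 and 472 CPM, and the other 4 had at least 1027 CPM, with a range of 3.60 times in all. Its paralog miR-10b, by contrast, had a CV of 16.6%, and the ratio of miR-10b to miR-10a was 10.7 in replicate 5 and 27.7 in replicate 2. MiR-10a had the highest CV under library size, TMM and DESeq2 scaling and with the muscle list left out of the total.

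The next highest CVs were 42.2% for miR-9, 38.5% for miR-31, 36.2% for miR-451 and 35.5% for miR-101. MiR-31 had 199.5 CPM in replicate 3, a median of 276 and 456 CPM in replicate 1. Replicates 1 and 2 were high, at 456 and 451 CPM, replicate 5 was in between and the other 3 were at most 218 CPM. MiR-101 had 969.9 CPM in replicate 4, a median of 1556 and 2667 CPM in replicate 3. Among the 25 most abundant miRNAs, miR-451 and miR-378 were the most variable, with CVs of 36.2% and 28.6%. The heart markers miR-133a, miR-1 and miR-499 had CVs of 14.0%, 15.3% and 19.3%.

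**Figure D5:**
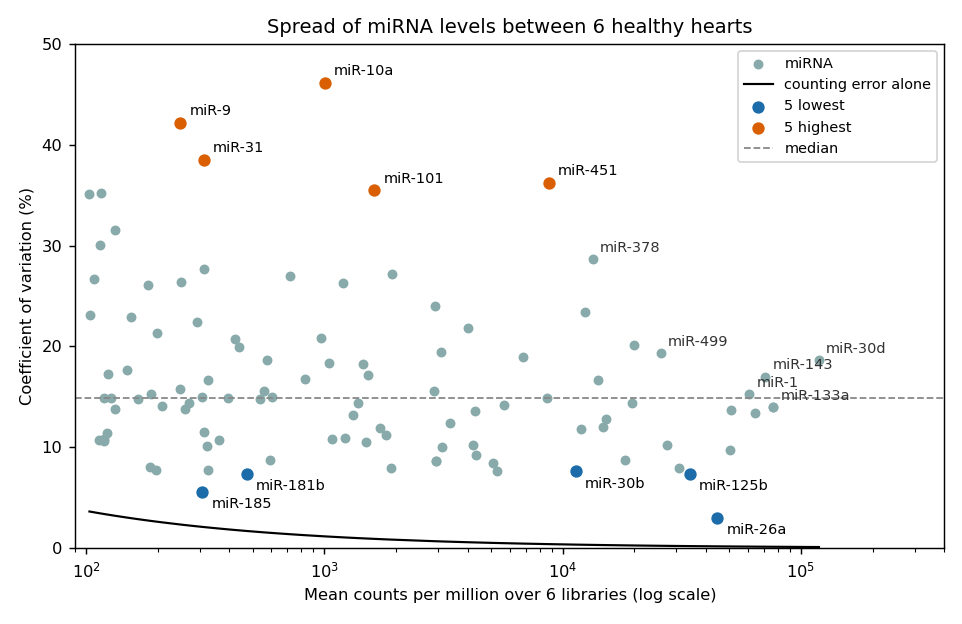
Coefficient of variation over the 6 healthy hearts (vertical axis, percent) against the mean level (horizontal axis, CPM, logarithmic) for the 105 miRNAs of at least 100 CPM. Each point is a miRNA, the solid line gives the CV that counting error alone would leave, the dashed line the median of 14.9%, and coloured points the 5 lowest and 5 highest, from miR-26a at 3.01% to miR-10a at 46.2%.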

How the data were processed

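Per the methods, the authors removed adapters with Cutadapt, mapped the cardiac reads to the CanFam3.1 genome with Bowtie and, for the miRNAs of miRBase, took read numbers from HTSeq. They deposited the raw counts and the same counts as CPM over all 517 entries, with no further normalization. Recomputed from the counts, the deposited CPM differed by at most 0.00499. Percentages and CPM in the text were computed from the counts, over 1 entry per mature miRNA, without a pseudocount. Totals over all entries were 7935194 to 13428485 (median 10317483). The methods describe no molecular identifiers for these libraries, and intervals cover counting error only. The SD measures the spread between libraries, in which dog, block and preparation are not separated.

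One group was described with means, SDs, ranges and ranks, and no test was made between groups. The spread was taken over miRNAs of at least 100 CPM. The common dispersion came from edgeR 4.0.16 with an intercept only, in R 4.3.3, and the size factors of an alternative from DESeq2 1.42.0. Tables were made with Python 3.11.15 and pandas 2.3.3. The computation was tested on simulated data. The gene table matched 490 of 502 precursors by name, 219 of them within a protein-coding gene by position. Some of these, such as mir-8865, fell within many genes at once, and such placements are not reliable. Coordinates of the gene table served to find host genes and neighbours and are not shown. Mature sequences are not shown, and seed groups were not formed.

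Named were the 25 miRNAs with the highest mean percent, every member of the muscle list, up to 4 of the highest members of each other list, the 5 lowest and 5 highest CVs, pairs of arms and names with nearly equal counts. MiRNAs named beside these, among them the neighbours in clusters, were chosen after their values were seen. The members and the 24 lists, written from general knowledge, were chosen with earlier results of these data known. Alternatives were other ways to combine entries, shared reads counted once, a total without the muscle list, other size factors, other filters and each library left out in turn.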

Additional observations from a re-analysis of the deposited data

Results flagged for a closer look

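Of 105 single values and list shares examined for a library apart from the other 5 of its group (Dixon's test at the 95% level), 2 stood apart, and chance gives about 1 in 20. MiR-124, a neuronal miRNA, had 24.8 CPM in replicate 4 and at most 2.68 CPM in the other hearts. The erythroid list held 2.39% of the counts in replicate 2 and 3.03% to 3.37% in the others. The reason was not tested in either case. Of the other neuronal miRNAs, miR-9 had 327 CPM in replicate 4 and was higher in replicate 6, at 394 CPM. MiR-137 was counted in replicate 4 alone, at 0.688 CPM. In replicate 2, miR-486 was at its lowest while miR-451 and miR-144 were not.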

How the results depend on the processing

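No paired analysis was possible because a single group was described and no test was made. With distinct entries summed, miR-30d held 9.44%, the miR-26 family 8.01%, the miR-125 and miR-99 families 8.69%, the smooth muscle list 5.98% and the 10 most abundant miRNAs 69.0%. With all entries as deposited, these were 8.26%, 7.00%, 8.87%, 5.22% and 69.8%, and the muscle list held 31.4% and the miR-30 family 16.5%. With near-equal names counted once, the muscle list held 17.8%, the miR-26 family 6.13% and the miR-125 and miR-99 families 8.20%. With the muscle list left out of the total, the let-7 family held 22.4%, the miR-30 family 27.7%, the miR-26 family 7.45%, the miR-125 and miR-99 families 9.93% and the smooth muscle list 9.91%. These 4 settings change the total or the reads by construction. With no filter beyond a read in every library, the common biological coefficient of variation was 28.4%. Leaving out 1 library at a time gave 64.5% to 65.0% for the 10 most abundant and 18.2% to 19.2% for that coefficient. Removing 1 of 6 libraries cannot move a mean share by as much as the SD between libraries, so these ranges are a description only. Depth limits the 60 miRNAs under 1 CPM and the 167 at 0, which cannot be ranked.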

Other observations

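MiRNAs on none of the 24 lists, 179 of the 453, held 4.47% ± 0.192 of the counts (SD, n = 6), and 140 of them were detected. The 13 with a mean of at least 1000 CPM held 3.53% ± 0.151, and they were named after their values were seen. MiR-103 and miR-107, whose counts are nearly equal, are both among them at 2942 CPM each. Both shares therefore count those reads more than once. MiR-21, which is known to increase in stressed heart tissue and in fibroblasts, led the 13 with 4711 CPM in replicate 5, a median of 5913 and 6748 CPM in replicate 3. MiR-191 had 5279 ± 405 CPM, miR-151, which lies in the kinase gene PTK2, 5096 ± 431 CPM and miR-186 4189 ± 427 CPM (SD, n = 6). MiR-652 was the most variable of the 13 after miR-101, with 727 CPM in replicate 3 and 1659 CPM in replicate 1, and miR-140, a miRNA of cartilage, had 1520 ± 260 CPM (SD, n = 6).

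Arms of a hairpin named apart were low, apart from those of miR-486. MiR-135a-5p had 5.98 ± 4.84 CPM and miR-219-5p 2.56 ± 1.21 CPM (SD, n = 6), the opposite arms miR-135a-3p and miR-219-3p were under 1 CPM on average, and both arms of miR-1199 had no count.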
